A study of Mus musculus with 3 samples.

Results

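Emx1, Emx2, Lhx2, Otx1, Otx2 and Six3 are homeobox genes that pattern the front of the brain. The set holds these 6 genes of 21593 counted, and they were chosen by name, as a list drawn up with earlier results of these data known. Accessibility of each was measured by single-nucleus ATAC-seq, in which the transposase Tn5 inserts adapters into open DNA and every nucleus carries its own barcode, so that more fragments at a gene mean more open chromatin there. The nuclei came from wild-type (WT) C57BL/6JRj mouse embryos, with 1 library for each of the stages E12.5, E13.5 and E15.5 (days of embryonic development), made from frozen tissue sections of littermates of the embryos that the study mapped in space. All 3 groups shared genotype and strain and received no treatment. Clusters 0, 6 and 9 of the deposited clustering (called the neural clusters here, 482 nuclei) were compared with the other clusters, leaving out the shallow clusters 2 and 4, so that 1450 of 1879 nuclei in 10 of 12 clusters were used.

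Six3 marks the most anterior neural plate and the eye field and holds back posterior signals there. Otx2 is needed early for forebrain and midbrain identity, and Otx1 acts later, among others in cortical progenitors and deep cortical neurons. Lhx2 is a LIM homeodomain factor that selects cortical over hem and antihem fate and is needed for eye and forebrain growth, and Emx1 and Emx2 mark the dorsal telencephalon, where Emx2 also sets cortical area identity. All 6 encode homeodomain proteins, which bind short AT-rich sites in regulatory DNA.

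The labels of the clusters were checked against marker genes, scored as at least 1.5-fold above the mean of the other clusters. Cluster 0 was neuron-like, with 8 of 8 neuron and 5 of 7 GABAergic markers raised, and Gad1, which makes the inhibitory transmitter GABA, led its genes. Cluster 6 was neuron-like too, with 7 of 8 neuron, 8 of 8 glutamatergic and 0 of 7 GABAergic markers raised, led by the glutamate transporter gene Slc17a6. It also had 4 of 8 neural progenitor markers raised, where cluster 0 had 1 of 8. Cluster 9 was progenitor-like, with 8 of 8 neural progenitor markers raised and Sox1 and Pax6 among its leading genes, beside 3 of 8 neuron markers. In these 3 clusters no erythroid, mesenchyme, endothelial or epithelial marker reached that level, and of the muscle, hepatocyte, white blood cell, sensory neuron and olfactory lists at most 1 gene each did: Ttr, Prdm12 and Cnga2 in cluster 9, Apoa1, Ptprc and Gnal in cluster 0, and Chrna1, Cd53, Omp and Pou4f1 in cluster 6. Of the other clusters, cluster 1 had 6 of 6 mesenchyme markers raised, cluster 5 had 7 of 7 erythroid and cluster 10 had 6 of 6 muscle markers. Cluster 3 had 5 of 6 mesenchyme and cluster 7 had 6 of 7 epithelial markers raised. Cluster 8 had 5 of 6 hepatocyte, 5 of 6 endothelial and 5 of 6 white blood cell markers raised.

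The E12.5 library held 153 nuclei, E13.5 held 970 and E15.5 held 756, with 9402554, 87687839 and 53120243 unique fragments, so E12.5 values carry the widest counting error. The E13.5 and E15.5 libraries had 1 barcode in common and the other pairs of libraries had 0. Doublets were not removed, and over the whole libraries 5, 32 and 138 barcodes shared at least 10% of their fragments with another barcode of the same library. Most of the 138 were outside the clusters used, where the highest E15.5 numbers were 9 in cluster 1 and 4 in cluster 0. No cluster used held more than 11 such barcodes in a library (cluster 7 at E13.5). Median depth in the clusters used ran from 57306 to 105158 fragments per nucleus, except 12478 in cluster 11, and the share of fragments at promoters ran from 6.95% in cluster 3 to 14.3% in cluster 5, with 36.7% in cluster 11. Tests used the 23 sums of a cluster in a library with at least 10 nuclei, in clusters that had such a sum in at least 2 libraries, which left 8 sums of the neural clusters and 15 sums of clusters 1, 3, 5, 7, 8 and 10 (the rest). Cluster 6 at E12.5 (5 nuclei) and cluster 11 (only E13.5, 35 nuclei) were thereby outside the fit. The clusters were called by the study from the same nuclei, and the libraries are of different stages, so an adjusted p says how steady a difference between given clusters was over stages, not how it would vary over embryos.

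For 5 of the 6 genes a stretch of open DNA outside promoters and exons was more accessible in the neural clusters with all libraries in the fit. Of all tiles tested 1.96% were higher, and with 45 to 136 tiles tested per gene a single higher tile, as at Six3 (1 of 86, or 1.16%), is no more than that share. Without E13.5 no tile was called at Otx1 or Six3, and without E12.5 or E15.5 none at Six3. The sequences below are the central 300 bases of the 500 bp tile with the smallest p of that kind for each gene, on the plus strand of GRCm38.p6, shown as the DNA under that signal at each locus. At Lhx2 this rule passed over a tile of smaller p that touches an exon of an antisense transcript. Capitals mark matches, on either strand, to TAATTA (a core bound by many homeodomain proteins), to GGATTA (a form preferred by OTX proteins), to CAGCTG or its E-box relative CAGATG (sites of proneural factors), and to ACAATG or its SOX-type relative ACAAAG. No match overlapped another in these stretches.
Emx1 distal tile, chr6:85165601-85165900, intergenic, -21.7 kb from the gene start: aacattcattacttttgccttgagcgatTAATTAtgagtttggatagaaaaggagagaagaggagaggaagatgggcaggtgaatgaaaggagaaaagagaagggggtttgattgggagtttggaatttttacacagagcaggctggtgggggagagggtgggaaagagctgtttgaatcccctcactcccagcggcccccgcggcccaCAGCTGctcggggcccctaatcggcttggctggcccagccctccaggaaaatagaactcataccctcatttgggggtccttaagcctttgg
Emx2 distal tile, chr19:59470101-59470400, intergenic, 11.9 kb downstream of the gene start: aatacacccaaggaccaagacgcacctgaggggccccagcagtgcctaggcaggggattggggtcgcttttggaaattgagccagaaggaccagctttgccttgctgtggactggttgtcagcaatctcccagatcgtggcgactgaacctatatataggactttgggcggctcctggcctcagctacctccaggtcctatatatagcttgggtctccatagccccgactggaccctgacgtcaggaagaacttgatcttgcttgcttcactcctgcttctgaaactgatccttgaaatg
Lhx2 intron tile, chr2:38340601-38340900, 1.47 kb downstream of the gene start: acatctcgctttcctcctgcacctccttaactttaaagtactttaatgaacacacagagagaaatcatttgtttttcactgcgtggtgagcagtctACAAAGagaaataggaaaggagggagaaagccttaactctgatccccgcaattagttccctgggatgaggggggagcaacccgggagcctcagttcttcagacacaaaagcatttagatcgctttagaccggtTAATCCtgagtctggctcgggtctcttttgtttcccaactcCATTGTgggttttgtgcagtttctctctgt
Otx1 distal tile, chr11:22017601-22017900, in an intron of Ehbp1, -14.9 kb from the gene start: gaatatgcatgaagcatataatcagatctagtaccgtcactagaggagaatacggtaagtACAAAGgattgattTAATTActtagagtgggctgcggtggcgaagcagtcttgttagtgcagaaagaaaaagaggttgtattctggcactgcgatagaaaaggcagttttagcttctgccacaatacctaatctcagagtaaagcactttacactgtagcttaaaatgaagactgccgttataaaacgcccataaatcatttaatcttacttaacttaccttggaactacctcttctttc
Six3 distal tile, chr17:85606601-85606900, in an intron of Six3os1, -6.86 kb from the gene start: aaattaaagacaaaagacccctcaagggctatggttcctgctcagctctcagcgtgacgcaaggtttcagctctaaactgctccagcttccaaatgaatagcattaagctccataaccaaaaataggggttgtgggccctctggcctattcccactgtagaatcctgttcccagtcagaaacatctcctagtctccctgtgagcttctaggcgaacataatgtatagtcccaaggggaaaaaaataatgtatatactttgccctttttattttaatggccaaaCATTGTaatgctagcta

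TAATTA occurred in the Emx1 and Otx1 stretches, and GGATTA in that of Lhx2 alone among the 5. The Lhx2 and Otx1 stretches each held ACAAAG, and those of Lhx2 and Six3 held ACAATG. The E-box CAGCTG was found at Emx1 only, and none of the 6 motifs was found at Emx2. Over the central 300 bases of all 848809 tiles tested, TAATTA occurred in 5.94%, GGATTA in 10.6%, CAGCTG in 18.5%, CAGATG in 24.4%, ACAATG in 13.48% and ACAAAG in 22.6%. Among the 16657 tiles that were higher in the neural clusters the shares were 15.7% for TAATTA, 8.95% for GGATTA, 19.4% for CAGCTG, 25.8% for CAGATG, 16.1% for ACAATG and 26.4% for ACAAAG. These are matches of letters, given as a description.

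The first comparison asked whether the 6 genes were more accessible in the neural clusters, over the gene body and the 2 kb upstream of it. All 6 genes were higher in the neural clusters at an adjusted p under 0.05, against 11.7% of 19196 genes tested that were higher and 8.6% that were lower. Levels are CPM, the fragments of a sum scaled to the same total over all windows of this kind, and the difference is between the mean of clusters 0, 6 and 9 and the mean of the 6 other clusters. The median log2 difference was 1.14 over the 6 genes and -0.01 over all genes tested.

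Lhx2 had the clearest difference. Its 8 neural sums ran from 69.8 to 201 CPM with a median of 146, and its 15 other sums from 25.7 to 83.5 with a median of 57. Of the 8 neural sums, 6 lay above every other sum, and the remaining pair, from cluster 0, fell inside the range of the rest. The log2 difference was 1.34 ± 0.11 (SE, adjusted p = 4.54e-11).

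Otx1 ran from 27.7 to 101 CPM in the neural sums (median 58.7) and from 7.71 to 35.2 in the others (median 29.5). Its log2 difference was 1.24 ± 0.15 (adjusted p = 5.22e-08), with 6 of 8 neural sums above all others. Emx1 ran from 24.0 to 63.9 CPM (median 52.0) against 7.71 to 40.6 (median 20.7), with a log2 difference of 1.16 ± 0.15 (adjusted p = 2.56e-07). For Emx1, 5 of 8 neural sums lay above every other sum, all of them from clusters 6 and 9.

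Emx2 ran from 26.0 to 70.7 CPM in the neural sums (median 42.2) and from 5.64 to 78.3 in the others (median 22.4). The highest single value of Emx2 was thus outside the neural clusters, in cluster 1 at E12.5, a sum of 10 nuclei and 27 fragments (95% Poisson interval 51.6 to 114 CPM). The log2 difference was 1.12 ± 0.17 (adjusted p = 2.85e-06). The intervals cover counting error only.

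Six3 and Otx2 differed less. Six3 ran from 26.1 to 68.7 CPM in the neural sums (median 44.3) and from 2.82 to 47.7 in the others (median 27.9), a log2 difference of 0.68 ± 0.17 (adjusted p = 0.00247). Without the E15.5 library it was 0.51 with an adjusted p of 0.154. Otx2 ran from 23.2 to 71.3 CPM (median 33.7) against 12.6 to 78.3 (median 27.4), a log2 difference of 0.60 ± 0.17 (adjusted p = 0.0105). No neural sum of Otx2 exceeded all others, because cluster 1 at E12.5 again had the highest value. The Otx2 call was lost without E13.5 (0.69), without E15.5 (0.45), without the erythroid-marked cluster 5 (0.43), without the deepest nuclei of each library (0.45) and with 1 neural and 1 other sum per library (0.44), with adjusted p between 0.0736 and 0.323.

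**Figure D1:**
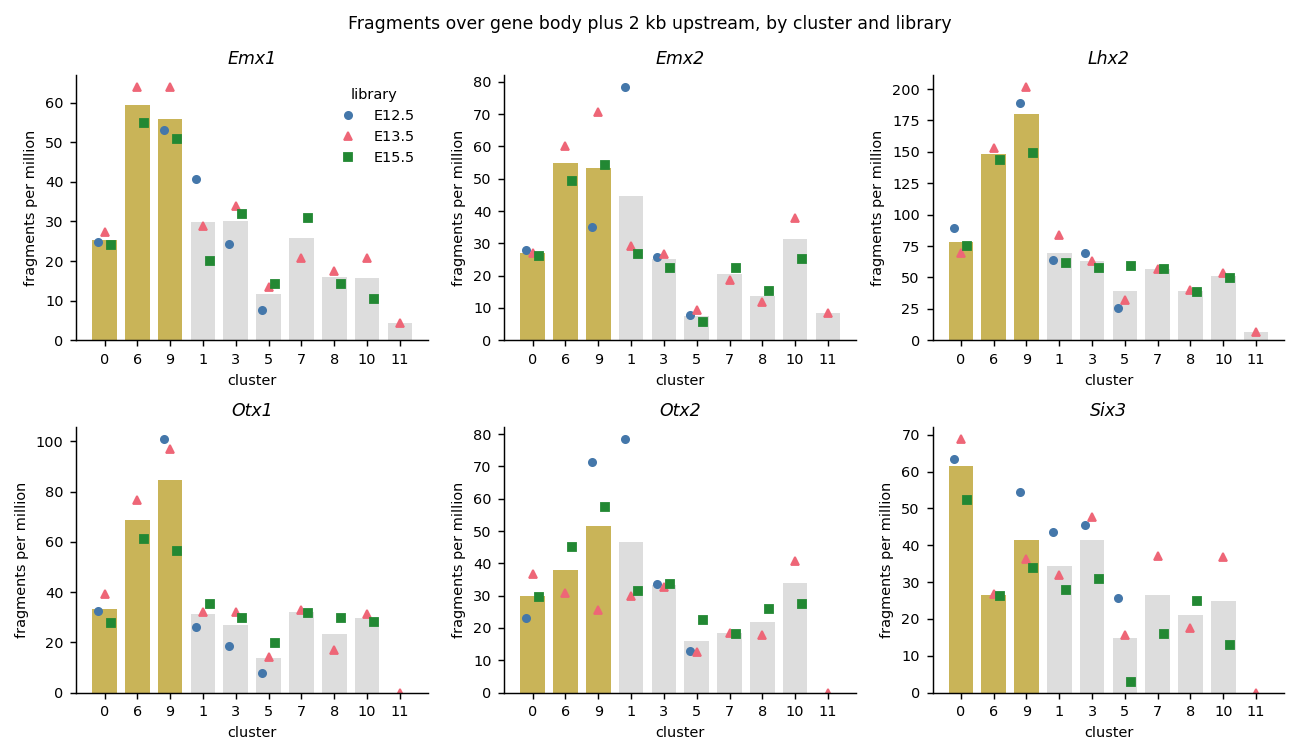
Level (CPM) over the gene body plus 2 kb upstream for each of the 6 genes (one panel each), by cluster. Bars are means over libraries, points are the single libraries, and neural clusters 0, 6 and 9 are in gold. Emx1, Emx2, Lhx2 and Otx1 stood highest in clusters 6 and 9, Six3 stood highest in cluster 0, and Emx2 and Otx2 had a high E12.5 point in cluster 1.

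Each neural cluster was also set alone against the same 6 other clusters, in a comparison chosen after these levels were seen. A gene that passed in one cluster and not in another is not thereby shown to differ between them, and the direct tests between neural clusters follow the values of the single genes. In the neuron-like cluster 0, Six3 and Lhx2 were higher (2 of 6 genes, where 7.97% of all genes were higher). In the glutamatergic-marked cluster 6, Emx1, Emx2, Lhx2 and Otx1 were higher (4 of 6, where 5.81% of all genes were). In the progenitor-like cluster 9, Emx1, Emx2, Lhx2, Otx1 and Otx2 were higher (5 of 6, where 5.96% of all genes were).

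Emx1, whose product marks cortical progenitors and the glutamatergic neurons they form, had 54.9 CPM at E15.5 and 63.9 at E13.5 in cluster 6 and 53.1, 63.9 and 50.8 CPM in stage order in cluster 9. In cluster 0 it had 24.7, 27.2 and 24.0 CPM, below the highest values of clusters 1, 3 and 7. The log2 difference from the rest was 1.58 ± 0.22 in cluster 6 (adjusted p = 3.49e-06), 1.53 ± 0.21 in cluster 9 (2.17e-06) and 0.36 ± 0.22 in cluster 0 (adjusted p = 0.318).

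Emx2 was much alike in order. It had 60.2 and 49.4 CPM in cluster 6 at E13.5 and E15.5, 35.0, 70.7 and 54.1 in cluster 9 in stage order, and 27.8, 26.9 and 26.0 in cluster 0. Cluster 1, with mesenchyme markers, had 78.3, 29.2 and 26.6 CPM, a mean of 44.7, which exceeded that of cluster 0. The log2 difference was 1.498 ± 0.25 in cluster 6, 1.46 ± 0.23 in cluster 9 and 0.41 ± 0.24 in cluster 0 (adjusted p = 5.72e-05, 2.27e-05 and 0.293). Without E13.5 the calls in clusters 6 (1.42) and 9 (1.16) were lost.

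Lhx2 was the 1 gene of the set that was higher in all 3 clusters. It had 189, 201 and 149 CPM in cluster 9 in stage order, 153 and 144 CPM in cluster 6 at E13.5 and E15.5, and 89.6, 69.8 and 75.2 CPM in cluster 0. Clusters 9 and 6 lay above all sums of every other cluster, and the range of cluster 0 overlapped that of cluster 1 (61.3 to 83.5 CPM). The log2 differences were 1.83 ± 0.15 in cluster 9, 1.58 ± 0.17 in cluster 6 and 0.60 ± 0.16 in cluster 0 (adjusted p = 6.79e-11, 3.51e-08 and 0.0111). In cluster 0 the call was lost without E13.5 (0.67) or E15.5 (0.63).

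Otx1 had 101, 97.1 and 56.4 CPM in cluster 9, and 76.5 and 61.0 CPM in cluster 6 at E13.5 and E15.5. Cluster 0 had 32.4, 39.3 and 27.7 CPM, a range that overlapped those of clusters 1, 3, 7, 8 and 10. Its log2 difference was 1.83 ± 0.20 in cluster 9, 1.47 ± 0.22 in cluster 6 and 0.43 ± 0.21 in cluster 0 (adjusted p = 4.33e-08, 1.14e-05 and 0.213). The cluster 6 call was lost without E13.5 (1.26).

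Otx2, active in the choroid plexus and midbrain as well as early forebrain, had 71.3, 25.6 and 57.5 CPM in cluster 9, and 30.9 and 44.9 CPM in cluster 6 at E13.5 and E15.5. It had 23.2, 36.5 and 29.6 CPM in cluster 0. At E13.5 cluster 9 was the lowest of the 3 and at the other stages it was the highest. The mean of cluster 1 (46.6 CPM) lay below that of cluster 9 (51.5) and above those of clusters 6 (37.9) and 0 (29.8). Clusters 10 (34.0) and 3 (33.4) also had means above cluster 0. The log2 difference was 0.87 ± 0.25 in cluster 9 (adjusted p = 0.0259), 0.65 ± 0.27 in cluster 6 (0.165) and 0.29 ± 0.24 in cluster 0 (0.505). Without E12.5, without E15.5 or without cluster 5 the call in cluster 9 was lost (0.70, 0.64 and 0.68). Of 6 hepatocyte-list markers only Ttr, also a choroid plexus gene, was raised in cluster 9, and its part in the Otx2 values was not tested.

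For Six3, cluster 0 stood first and cluster 6 last of the 3. It had 63.3, 68.7 and 52.4 CPM in cluster 0, each above all 15 sums outside the neural clusters, then 54.5, 36.2 and 33.8 CPM in cluster 9, and 26.6 and 26.1 CPM in cluster 6 at E13.5 and E15.5. Clusters 0 and 9 overlapped in range, and cluster 9 overlapped cluster 3 (30.9 to 47.7 CPM) and clusters 1, 7 and 10. The log2 difference was 1.26 ± 0.21 in cluster 0 (adjusted p = 3.83e-05), 0.63 ± 0.25 in cluster 9 (0.119) and 0.16 ± 0.28 in cluster 6 (0.823). The cluster 0 call held without each library in turn, at 1.35, 1.33 and 1.12.

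**Figure D2:**
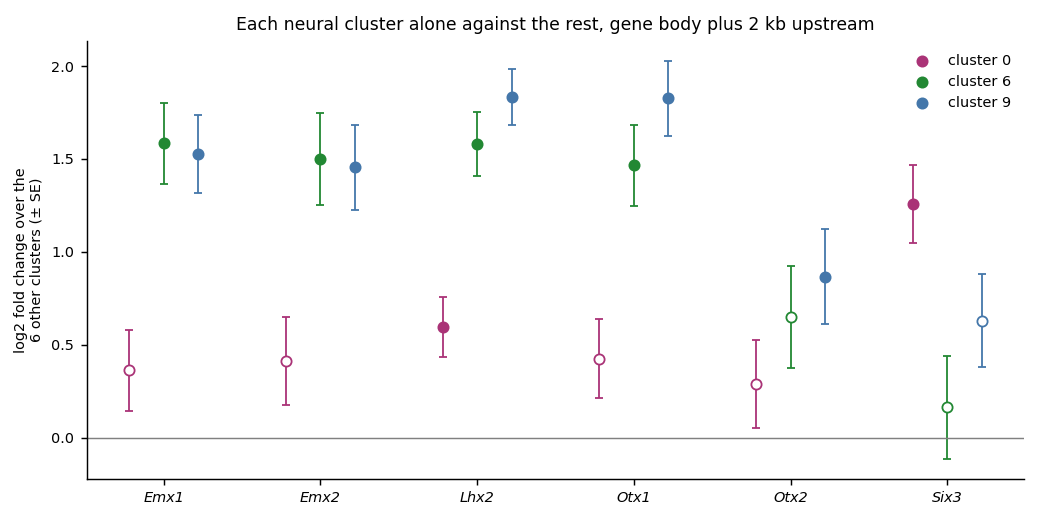
Log2 fold change (± SE) of each gene in cluster 0, 6 or 9 alone over the 6 other clusters, from the fit over all genes. Filled points had an adjusted p under 0.05 and open points did not. Emx1, Emx2 and Otx1 were filled in clusters 6 and 9, Lhx2 in all 3, Otx2 in cluster 9 and Six3 in cluster 0.

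Within the neural clusters, cluster 9 was compared with clusters 0 and 6 to set progenitor-like against neuron-like nuclei. The separation is partial, since cluster 6 had 4 of 8 neural progenitor markers raised and cluster 9 had 3 of 8 neuron markers. Lhx2 and Otx1 were higher in cluster 9 (2 of 6, where 1.35% of all genes were higher and 0.5% were lower). Lhx2 differed by 0.75 ± 0.18 on the log2 scale (adjusted p = 0.0221) and Otx1 by 0.88 ± 0.24 (adjusted p = 0.0423). The Lhx2 call was lost without E13.5 or E15.5, and the Otx1 call without any 1 of the 3 libraries and when the library was left out of the model. Emx1 (0.55 ± 0.24), Emx2 (0.50 ± 0.27), Otx2 (0.40 ± 0.29) and Six3 (-0.08 ± 0.28) did not pass, with adjusted p from 0.298 to 0.942.

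Between the neuron-like clusters 0 and 6, none of the 6 genes passed, and edgeR called 7 of 19196 genes (0.0365%), all lower in cluster 0, with 906 at an unadjusted p under 0.05. The differences were nonetheless of a size that the spread left wide. Emx1 was lower in cluster 0 by a log2 value of -1.22 ± 0.29 (adjusted p = 0.139), Lhx2 by -0.98 ± 0.23 (0.119), Emx2 by -1.09 ± 0.32 (0.412) and Otx1 by -1.04 ± 0.29 (0.326), while Six3 was at 1.09 ± 0.33 (0.428) and Otx2 at -0.36 ± 0.34 (0.999). The cluster 6 arm had 2 sums. DESeq2 called 29 genes in this comparison, Emx1 and Lhx2 among them (adjusted p = 0.0117 and 0.00580).

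Levels of different genes were compared per kilobase of their windows. In cluster 9 Otx1 stood highest with 8.36 CPM per kb, then Emx2 with 5.93, Lhx2 with 5.54, Emx1 with 2.94, Otx2 with 2.84 and Six3 with 2.35. In cluster 0 the order was led by Six3 (3.47), Otx1 (3.27) and Emx2 (2.99), with Emx1 (1.33) last. The Lhx2 window was the longest (32.5 kb) and that of Emx2 the shortest (8.99 kb).

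At the promoter, 1000 bp upstream to 100 bp downstream of the annotated gene start, 4 of the 6 genes were higher in the neural clusters (13.2% of 14026 genes were, and 9.75% were lower). Lhx2 differed by 1.86 ± 0.30 on the log2 scale (adjusted p = 1.19e-07), Emx1 by 1.56 ± 0.28 (1.54e-06), Emx2 by 1.24 ± 0.23 (3.48e-06) and Otx1 by 1.08 ± 0.33 (0.00843). Otx2 (0.19 ± 0.38) and Six3 (0.17 ± 0.50) did not pass. For Emx2, 3 of 8 neural promoter sums lay above all others. The muscle-marked cluster 10 had a mean of 60.04 CPM there, near cluster 9 (61.4) and below cluster 6 (80.6). Cluster 0 had a mean of 21.96 CPM, below clusters 10, 3 (41.1), 1 (35.9) and 7 (26.4). The Otx1 call was lost without E15.5 (1.27) and the Emx2 call without E13.5 (0.97). The annotated start of the Otx1 gene is not among its coding transcript starts, and Lhx2, Six3 and Otx2 have 2, 3 and 5 such starts, so promoters of all coding transcript starts were pooled in a window chosen after the gene models were seen. There too 4 of the 6 genes were higher (14.4% of 14956 genes were, and 11.1% were lower), with Otx1 at 1.33 ± 0.20, Otx2 at 0.45 ± 0.19 (adjusted p = 0.0734) and Six3 at 0.54 ± 0.29 (0.170). Six3 promoters had 68.0, 73.3 and 58.9 CPM in cluster 0, from 8, 59 and 100 fragments. In cluster 6 they had 11.7 and 10.2 CPM at E13.5 and E15.5, from 10 and 5 fragments. In cluster 9 they had 76.9, 23.2 and 12.4 CPM in stage order, from 11, 14 and 3 fragments. Cluster 3, outside the neural clusters, had 39.2 to 49.6 CPM. Its mean of 45.1 lay below that of cluster 0 (66.7) and above those of clusters 9 (37.5) and 6 (10.96). Otx2 promoters in cluster 9 had 154, 21.5 and 90.6 CPM in stage order, from 22, 13 and 22 fragments.

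In the 50 kb on either side of the gene window, 5 of the 6 genes were higher (11.4% of 21074 genes were higher and as many, 11.4%, were lower). Otx1 differed by 0.84 ± 0.15, Emx1 by 0.81 ± 0.14, Otx2 by 0.71 ± 0.16, Emx2 by 0.53 ± 0.13 and Lhx2 by 0.44 ± 0.12 (adjusted p = 3.85e-05, 1.93e-05, 7.88e-04, 0.00246 and 0.00531), and Six3 did not pass (0.29 ± 0.16, adjusted p = 0.175). For Lhx2 the highest mean of the flanks was that of the muscle-marked cluster 10, with 68.0 and 75.1 CPM, above the means of clusters 9 (59.6), 6 (54.8) and 0 (51.7). For Emx2, Lhx2 and Six3, 0 of 8 neural flank sums lay above all others. The upstream side had the larger ratio of neural to other means for Otx1 (2.13 against 1.44 downstream) and Otx2 (1.82 against 1.55), and the downstream side for Emx1 (2.08 against 1.58) and Emx2 (1.90 against 1.06). The flanks of Emx1, Lhx2 and Otx1 hold other protein-coding genes (Spr and Sfxn5, Dennd1a, and Ehbp1), whose own accessibility is counted in them. Without E13.5 only Otx1 and Otx2 passed in the flanks, and without E15.5 only Emx1 and Otx1. With 25 kb flanks the Otx2 call was lost (0.46).

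**Figure D3:**
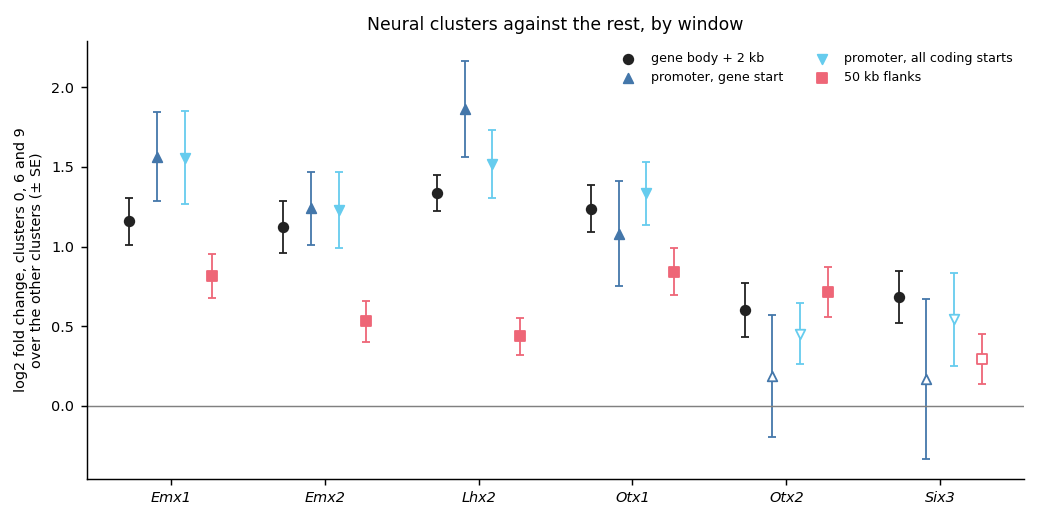
Log2 fold change (± SE) of clusters 0, 6 and 9 over the other clusters for each gene in 4 windows. Filled points had an adjusted p under 0.05. All 6 genes were filled over the gene body, while Otx2 and Six3 were open at both promoter windows and Six3 was open in the flanks.

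A map of fixed 500 bp tiles showed where within these loci the difference lay. Of 538 tiles tested in or within 50 kb of the 6 gene windows, 42 (7.81%) were higher in the neural clusters and 1 was lower, against 1.96% higher and 0.527% lower among all tiles. Without E13.5, the deepest library, 6 of 149 tiles tested near the genes were higher, where 3248 of 161567 tiles were in all. Without E15.5 it was 20 of 302 (5913 of 401822 in all), and without E12.5 38 of 468 (16784 of 752025 in all). Without E13.5 the 6 were 3 at Lhx2, 2 at Emx2 and 1 at Emx1. Emx1 had 14 of 136, Lhx2 14 of 133, Emx2 7 of 81, Otx1 6 of 45, Six3 1 of 86 and Otx2 0 of 57. Outside the gene windows, in the flanks, lay 19 of the 42: 10 at Emx1, 5 at Emx2, 3 at Otx1 and 1 at Six3. Of the 42, 9 touched promoters of the 6 genes, 5 lay in exons and 18 in introns of any gene, and 10 lay between genes. The same split of all tiles tested is not given here. Levels of tiles are CPM of all fragments of the same nuclei.

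At Emx1, the tile with the smallest p lay between genes at -21.7 kb and is the first stretch printed above. It had 5.10 CPM in cluster 6, 4.74 in cluster 9 and 0.30 in cluster 0, where the highest other cluster had 0.34, a log2 difference of 3.98 ± 0.62 (adjusted p = 1.47e-07). The count behind it was 50, 39 and 8 fragments in clusters 6, 9 and 0. Called tiles at -22.7, -22.2 and -21.2 kb made this a run of 4 neighbours. The promoter tile of Emx1 had 7.01 CPM in cluster 9 and 4.17 in cluster 6 against 1.03 in cluster 0 and at most 1.87 elsewhere.

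At Otx1, the tile at -14.9 kb in an intron of Ehbp1 had the largest difference of the 42, 4.74 ± 0.73 on the log2 scale (adjusted p = 1.07e-07). Without E13.5, 0 of 24 Otx1 tiles tested were higher. It was open in all 3 neural clusters, with 0.76, 1.24 and 2.24 CPM in clusters 0, 6 and 9, while the highest other cluster had 0.14, and it rested on 21, 12 and 19 neural and 8 other fragments. Another Ehbp1 intron tile at -4.85 kb had 4.45 and 4.77 CPM in clusters 6 and 9, 0.30 in cluster 0, and 4.01 in the epithelial-marked cluster 7.

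At Lhx2 all 14 higher tiles lay in the gene window, and the 1 lower tile of the set lay between genes at -50.0 kb (-2.97 ± 0.91). The smallest p was that of a tile 8.97 kb downstream of the start, over an exon of the antisense transcript Gm27197, with 7.05, 6.33 and 1.15 CPM in clusters 9, 6 and 0 and a log2 difference of 2.75 ± 0.42 (adjusted p = 5.57e-08). The intron tile printed above, 1.47 kb downstream, had 2.84, 1.48 and 0.93 CPM in clusters 9, 6 and 0 (2.39 ± 0.60, adjusted p = 0.00617). The inner promoter of Lhx2, 12 kb downstream of the first start, was its most open tile, at 12.9 CPM in cluster 9, 11.5 in cluster 6 and 4.69 in cluster 0, and cluster 1 reached 5.23.

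At Emx2, the tile at -1.12 kb, within its promoter region and inside the antisense gene Emx2os, had 3.45, 2.78 and 0.70 CPM in clusters 6, 9 and 0 (3.35 ± 0.58, adjusted p = 4.98e-06). Downstream of the gene, 5 tiles between 7.38 and 12.4 kb from the start were called, among them the printed stretch with 2.96 and 3.04 CPM in clusters 6 and 9 against 0.38 in cluster 0 (2.28 ± 0.55, adjusted p = 0.00388). ATAC fragments carry no strand, so Emx2 and Emx2os cannot be told apart where they overlap, and the same holds for Six3 and Six3os1 and for Otx2 and Otx2os1.

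At Six3, the single called tile, printed above, had 1.17 CPM in cluster 9, 0.87 in cluster 0 and 0.34 in cluster 6 (2.60 ± 0.74, adjusted p = 0.0261) from 6, 16 and 5 fragments. Without E12.5, without E13.5 or without E15.5, 0 Six3 tiles were higher, of 69, 18 and 46 tested. At Otx2, no 500 bp tile was called with all libraries. Without E12.5, 1 of 54 tested there was higher (16784 of 752025 in all). With 1 kb tiles it was 1 of 85 (15893 of 1145892 in all). With at least 100 fragments it was 1 of 1 (11206 of 90167 in all). The smallest adjusted p with all libraries was 0.0598, at a tile between genes 65.1 kb downstream of the start. A tile at -35.9 kb in Otx2os1 had 3.80 CPM in cluster 9 against 1.24 and 0.98 in clusters 0 and 6 (adjusted p = 0.117).

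**Figure D4:**
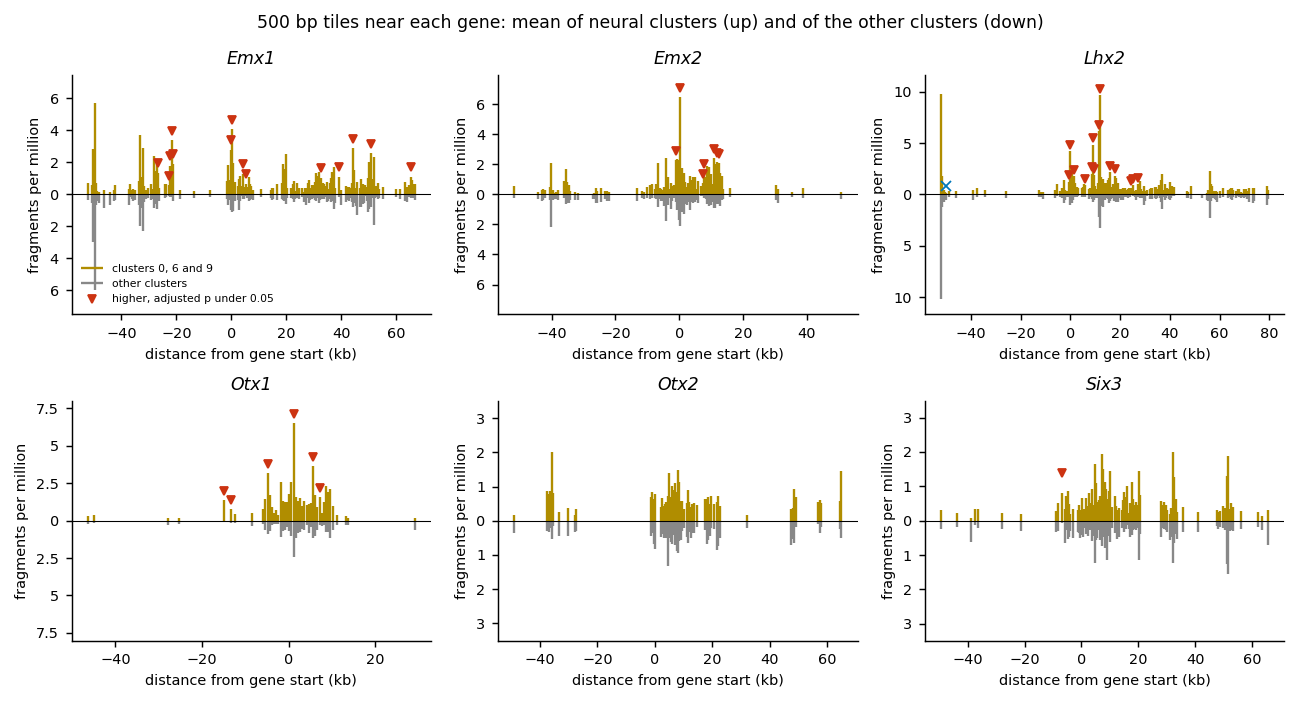
Mean level (CPM) in 500 bp tiles around each gene, by distance from the gene start along its own strand. Bars pointing up are the mean of clusters 0, 6 and 9 and bars pointing down that of the other clusters, red triangles mark tiles higher and a blue cross the tile lower at an adjusted p under 0.05. The 14 higher tiles at Emx1 included a run near -22 kb, those at Lhx2 lay within its gene window, and 5 of the 7 at Emx2 lay downstream of the gene. With all libraries and this tile size there was none at Otx2.

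Stages could be set side by side only as single libraries, with no test. In cluster 0, Emx1 at E15.5 was 0.884 times its E13.5 level (95% interval of the ratio 0.685 to 1.15), while all genes with at least 50 fragments had ratios from 0.745 to 1.33 between the 10th and 90th percentiles. In cluster 9, Otx1 at E15.5 was 0.581 times its E13.5 level (0.419 to 0.792) and Lhx2 was 0.739 times (0.605 to 0.898), where the 10th to 90th percentiles of all genes were 0.632 and 1.52. Emx2 in cluster 9 was 2.02 times as high at E13.5 as at E12.5 (1.32 to 3.21), past the 90th percentile of 1.68. Otx2 in cluster 9 was 0.358 times as high at E13.5 as at E12.5 (0.243 to 0.531), below the 10th percentile of 0.615, and then 2.25 times as high at E15.5 as at E13.5 (1.52 to 3.33), past the 90th of 1.52. Otx1 in cluster 0 was 0.705 times as high at E15.5 as at E13.5 (0.565 to 0.883), below the 10th percentile, and Six3 there was 0.762 times as high (0.647 to 0.899), inside the percentiles. Otx2 in cluster 6 was 1.45 times as high at E15.5 as at E13.5 (1.08 to 1.96), past the 90th percentile of 1.39. In cluster 6, whose E12.5 sum of 5 nuclei was outside the fit, Emx1 was 2.49 times as high at E13.5 as at E12.5 (1.19 to 6.26) and Emx2 2.34 times (1.12 to 5.90), both past the 90th percentile of 2.25 and both from 7 fragments at E12.5, and Otx1 was 1.90 times as high (1.04 to 3.84). At E12.5 Emx1 had 25.7 CPM in cluster 6 (95% Poisson interval 10.3 to 52.9) and 24.7 in cluster 0. Stage and library cannot be told apart here.

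**Figure D5:**
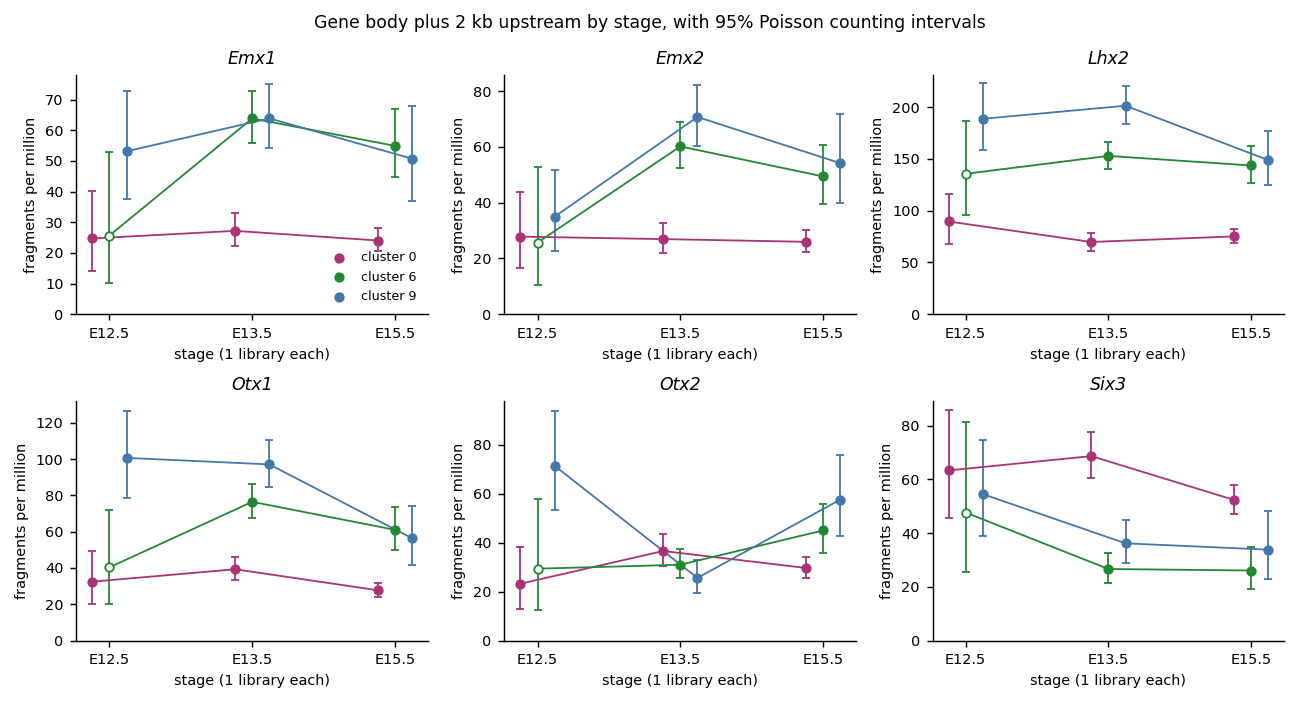
Level (CPM) over the gene body plus 2 kb upstream in clusters 0, 6 and 9 at each stage, with 95% Poisson intervals that cover counting error only. Lines join libraries of 1 cluster, and the open point is cluster 6 at E12.5 (5 nuclei), which was outside the fit. Cluster 0 stayed lowest for Emx1, Emx2, Lhx2 and Otx1 at E13.5 and E15.5 and highest for Six3, and Otx2 in cluster 9 had its low value at E13.5.

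Pooling all nuclei of a library outside clusters 2 and 4 gave each stage's ratio of neural clusters to the rest. For Otx1 it was 3.0 (95% interval 2.17 to 4.17) in the earliest library, 2.74 (2.46 to 3.05) in the next and 1.18 (1.02 to 1.36) in the latest. Lhx2 had 2.14, 2.52 and 1.73, and Emx1 had 1.68, 2.17 and 1.39. Emx2 had 1.05 (0.726 to 1.51), 2.39 and 1.48 in stage order. Six3 had 1.51, 1.5 and 2.0, its highest at E15.5, and Otx2 had 1.28, 1.3 and 1.3. Cluster 0 was 40.7%, 40.8% and 71.1% of the 27, 213 and 242 neural nuclei of these libraries, and its part in the ratios was not tested. Among the rest, cluster 5 held 10, 166 and 10 nuclei in stage order. It had the lowest mean of the clusters in the fit for each of these genes, and its part was not tested either.

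Other genes of the same region were taken from lists of names. Of 30 other forebrain regulators, 18 were higher in the neural clusters, 3 were lower and 9 did not pass, with a median log2 difference of 0.68, where 11.7% of all genes were higher and 8.6% were lower. Among those with the smallest p were Pax6, a progenitor and eye regulator (1.54 ± 0.12), Fezf2, which specifies deep cortical neurons (2.20 ± 0.20), Dmrta2 (1.41 ± 0.16) and Nr2f1, a cortical area regulator (1.33 ± 0.15). The lower genes were Hesx1 (-1.26), Tcf7l2 (-0.47) and Irx3 (-0.73), named here because they were few. Hesx1, an early anterior repressor, had 18.1 CPM in cluster 5 and at most 10.8 elsewhere.

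Of 18 midbrain and hindbrain regulators, 8 were higher, 2 were lower and 8 did not pass, with a median of 0.44, beside the same 11.7% and 8.6% of all genes. Among those with the smallest p were Pax5 (0.66 ± 0.12), En1 (0.95 ± 0.20) and Hoxa2 (-0.95 ± 0.25), the last a hindbrain segment gene that was lower in the neural clusters, as was Hoxb2 (-0.64). Of 12 eye field and retina genes, 4 were higher (among them Atoh7 1.09, Pou4f2 0.99 and Pax2 0.48), Pmel was lower (-0.51) and 7 did not pass, with a median of 0.36, again beside 11.7% and 8.6%. Pax2 is also on the midbrain and hindbrain list, and Rax and Six6 are also on the forebrain list. Over the gene body plus 2 kb upstream, Rax, which defines the eye field, was at 0.03 ± 0.22 and did not pass, nor did Six6 at 0.52 ± 0.26. At promoters 2 of the 8 eye genes tested were higher, 0 were lower and 6 did not pass, where 13.2% of all genes were higher. The higher genes there were Rax (1.62 ± 0.54, adjusted p = 0.0165) and Rlbp1 (1.18 ± 0.36, adjusted p = 0.00904). The list medians stood in the order forebrain, midbrain and hindbrain, eye, all above the -0.01 of all genes. The difference between lists was not tested.

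The levels of the 6 genes moved together to different degrees over the 23 sums (Pearson r of log2(CPM + 1), sums that share libraries, depth and clusters, as a description). Lhx2 and Otx1 were most alike (0.91), then Emx1 with Lhx2 (0.89), Otx1 (0.84) and Emx2 (0.82). Six3 was least like the others, from 0.33 with Otx1 to 0.57 with Emx2, and Otx2 ran from 0.43 with Six3 to 0.73 with Emx2. Among 13610 genes with a mean of at least 20 CPM, the most alike to Emx1 were Lhx2 (0.89), Rorb (0.86) and Ggact (0.86), to Emx2 were Nr2f1 (0.91), Cdon (0.89) and Ghrh (0.89), and to Lhx2 were Gm43517 (0.92), Otx1 (0.91) and Dmrta2 (0.90). The most alike to Otx1 were Lhx2 (0.91), Pipox (0.90) and Gm43517 (0.89), to Otx2 were Fgf18 (0.84), Zic1 (0.79) and Ptn (0.79), and to Six3 were Pclo (0.90), Lrrtm3 (0.90) and Asxl3 (0.90). The median gene had r between -0.06 and -0.02 with each.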

How the data were processed

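Single-nucleus ATAC-seq fragments of 3 mouse embryo libraries were analysed. Per the file headers and processing notes, the authors made the fragment files with Cell Ranger ATAC 2.0.0 on mm10, keeping duplicates once and centring ends on the Tn5 cut, and Seurat 4.1.0 and Signac 1.6.0 are named too. The deposited counts are whole numbers: read pairs per unique fragment, and fragments per nucleus in a table that also gives the authors' clusters, whose settings the notes and headers do not give. Of its columns, 20 went unused, and recomputed totals differed from its tallies by at most 0.604%.

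Unique fragments were counted over GENCODE vM21 gene windows (body plus 2 kb upstream, promoter, 50 kb flanks) and over 500 bp tiles by midpoint, and summed per cluster and library. Of 21938 protein-coding genes, 91 in gene clusters and 228 spanning over 500 kb were left out. Fits used edgeR 4.0.16 in R 4.3.3 (quasi-likelihood, TMM, cluster plus library as block) over all features, with Benjamini-Hochberg adjustment at 0.05 and low features filtered (tiles: under 30 fragments). DESeq2 1.42.0, total-fragment scaling, other filters, windows and nuclei, and leaving out each library or cluster were alternatives. The fit was also run on simulated data, with an outcome that is not reported here. Sums have exact Poisson intervals and ratios exact ones, for counting error only.

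The 6 genes and all lists were chosen with earlier results of these data known. Named by rule were the members, the 3 genes most alike to each (mean of at least 20 CPM), the 6 forebrain and 4 midbrain and hindbrain list genes of smallest p, and per member the called tile of smallest p, also outside promoters and exons. Some list genes that the rule names are not reported here. Eye genes, other list genes and further tiles were named after their values were seen. Every stage has replicate number 1 only, so the library served as the block and no pairing of replicates could be checked. The labels do not say how many embryos each library holds. Sequences are from the RefSeq GRCm38.p6 genome.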

Additional observations from a re-analysis of the deposited data

Results flagged for a closer look

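Clusters 2 and 4, which the comparisons left out, hold 429 nuclei of low depth, and all 6 genes had fragments in them beyond the 3 fragments that a count of 0 allows (2.02 CPM). The share of all genes beyond that floor was not counted, so passing it says nothing particular to these 6. Over the gene body plus 2 kb upstream there were 105 fragments at Lhx2 (70.8 CPM, 95% Poisson interval 57.9 to 85.7), 79 at Emx1 (53.3 CPM, 42.2 to 66.4), 59 at Otx1 (39.8 CPM, 30.3 to 51.3), 48 at Six3 (32.4 CPM, 23.9 to 42.9), 44 at Emx2 (29.7 CPM, 21.6 to 39.8) and 38 at Otx2 (25.6 CPM, 18.1 to 35.2). Emx1 in these nuclei was near its means in clusters 6 and 9 (59.4 and 55.9 CPM). Lhx2, Otx1, Emx2 and Otx2 were below both of their means in clusters 6 and 9, and Six3 lay between its means there. These values were in no test.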

How the results depend on the processing

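Leaving out each library in turn gave 1149 to 4270 genes over the gene body (3890 with all), 990 to 3369 at promoters (3216), 831 to 5470 in flanks (4816), 4 to 451 for cluster 9 against 0 and 6 (356), 0 to 18 for cluster 0 against 6 (7), and 3707 to 19915 tiles (21134). Called members were then 4 to 6 over the gene body, 2 to 4 at promoters (3 testable without E13.5), 2 to 5 in flanks, 0 to 1 for cluster 9, and 6 to 38 tiles near members (42 with all), the lowest without E13.5 or E15.5. Over the leave-outs that tested them, Otx2 at the promoter ran from -0.11 (without E15.5) to 0.13 and Six3 from -0.20 (without E15.5) to 0.25. Adding clusters with a sum in 1 library called 5915 genes and 1 sum per arm and library 2167. In comparisons chosen after seeing the data, cluster 0, 6 or 9 alone called 2401, 1527 and 1585 genes, with 2 members for cluster 0. DESeq2 called 619 genes for cluster 9 and 29, with 2 members, for cluster 0 against 6, where no filter gave 13.

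Without the replicate block (library left out of the model), the gene body count was 3707, 1 member passed for cluster 9, Six3 there turned to 0.024, and 25 tiles near members were higher. Scaling by total fragments shifted the median of all genes by -0.11 over gene bodies (1677 higher and 2668 lower, against 2240 and 1650) and by -0.14 in flanks (1431 and 5194, against 2405 and 2411), and all 6 members stayed higher over gene bodies. At 5 nuclei per sum the split was 3585 and 1513. Of 309 alternative values of member fold changes, single clusters against the rest not included, 3 reversed, 21 lost and 2 gained the call. In those single-cluster fits Six3 in cluster 6 (0.16) turned to -0.077 without E15.5 and -0.019 without cluster 5, and the calls lost there stand with each gene in the report. Emx1, Emx2, Lhx2 and Otx1 passed over the gene body under all 21 alternatives, Six3 under 20 and Otx2 under 16. The cause of each change was not tested. The number of nuclei limits E12.5, where most sums rest on few of them.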
